A study of Homo sapiens with 6 samples.

Results

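The regions described here are stretches of chromatin in which MYT1L was found repeatedly inside very long genes. MYT1L occupancy was measured by CUT&RUN, in which an antibody guides a nuclease to a chromatin protein and the DNA cut loose around it is sequenced. The peaks of 4 MYT1L libraries on chromosomes 1 to 22, X and Y were merged wherever they shared a base, which gave 49028 regions. Of these, 11091 (22.6%) had a peak in at least 3 of the 4 libraries and touched no peak of the IgG control libraries. The members are the 636 of them that lay inside the body of a protein-coding gene of at least 200 kb, more than 1000 bp from the end of any protein-coding gene. They make up 11.7% of the 5452 MYT1L regions placed in that way inside long genes. Inside shorter genes, 1380 of 10408 regions (13.3%) passed the same filter. Since peak support chose the members, their support and their fold enrichment are given as descriptions without a test.

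All libraries came from the unmodified human embryonic stem cell line H1, an established line, at day 30. By the series' design text the stem cells had been turned into cortical interneurons, although each sample's cell type label names embryonic stem cells. Expression was not measured, so the cell identity could not be checked against marker genes. The groups were MYT1L, with 4 libraries, and IgG, an antibody without a chromatin target, with 2. The labels do not say whether the replicates came from separate cultures, so the spread between them may be technical. In the MYT1L lists, the sample number in each peak name is 1 higher than in the sample title, and replicates are numbered here by title.

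MYT1L is a zinc-finger transcription factor of postmitotic neurons, known for recruiting corepressors and for holding non-neuronal programmes down in neurons. Its family binds a short core sequence, AAGTTT. Very long genes are common among those that build synapses, ion channels and neuronal adhesion systems, and many carry more than one transcription start. A start that lies deep inside the gene body, called an internal start here, produces a shorter transcript and often a protein that lacks the first part of the full-length form. Starts rich in the dinucleotide CG (CpG) belong to the class known as CpG islands, which remain largely unmethylated and open in most cell types.

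Among the 636 members, 141 had their summit within 500 bp of an internal start of a protein-coding gene (22.2%, 95% Wilson interval 19.1% to 25.6%). Windows of that size around such starts covered 0.193% of the length inside long genes. The examples below were picked after their values were seen. They show the 250 bases that precede an internal start, 5′ to 3′ on the strand of the gene, from RefSeq on GRCh38.p14, with every CG in capitals. IGSF11, an adhesion molecule of the immunoglobulin family, had the highest mean fold of the members at internal starts with a peak in every MYT1L library. Its start has 37 CG and 79.2% G+C, at chr3:119034847-119035096 on the minus strand.
IGSF11 start with a region: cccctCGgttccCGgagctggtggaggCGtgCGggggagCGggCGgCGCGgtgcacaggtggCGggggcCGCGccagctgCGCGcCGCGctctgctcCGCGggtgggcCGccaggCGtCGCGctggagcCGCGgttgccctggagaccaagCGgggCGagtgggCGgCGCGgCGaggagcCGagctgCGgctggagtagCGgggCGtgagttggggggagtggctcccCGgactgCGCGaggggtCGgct
For KLHL32, a kelch-family protein, and FUT8, the enzyme that adds the core fucose to N-glycans, an internal start with a member is set beside an internal start of the same gene where no MYT1L library had a region. The KLHL32 pair lies on the plus strand, at chr6:96924478-96924727 with 32 CG and at chr6:97009950-97010199 with 0.
KLHL32 start with a region: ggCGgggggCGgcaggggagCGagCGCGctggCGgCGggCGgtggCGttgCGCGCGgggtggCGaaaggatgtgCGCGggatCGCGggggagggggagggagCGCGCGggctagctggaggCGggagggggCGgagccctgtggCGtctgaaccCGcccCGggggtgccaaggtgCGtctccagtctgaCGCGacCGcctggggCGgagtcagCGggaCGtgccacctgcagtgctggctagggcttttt
KLHL32 start without a region: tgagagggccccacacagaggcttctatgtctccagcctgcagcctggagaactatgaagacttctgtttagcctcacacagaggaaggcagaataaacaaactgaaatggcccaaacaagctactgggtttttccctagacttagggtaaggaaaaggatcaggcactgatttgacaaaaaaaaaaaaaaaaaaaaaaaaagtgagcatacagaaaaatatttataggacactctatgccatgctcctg
The FUT8 pair, also on the plus strand, lies at chr14:65412480-65412729 with 29 CG and at chr14:65410342-65410591 with 1, so both starts are within a few kilobases of each other.
FUT8 start with a region: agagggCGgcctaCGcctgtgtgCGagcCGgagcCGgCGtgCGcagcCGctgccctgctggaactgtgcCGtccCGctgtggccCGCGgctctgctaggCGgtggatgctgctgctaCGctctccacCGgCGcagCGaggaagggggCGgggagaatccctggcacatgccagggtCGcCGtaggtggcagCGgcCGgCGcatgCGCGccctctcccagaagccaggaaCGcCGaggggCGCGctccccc
FUT8 start without a region: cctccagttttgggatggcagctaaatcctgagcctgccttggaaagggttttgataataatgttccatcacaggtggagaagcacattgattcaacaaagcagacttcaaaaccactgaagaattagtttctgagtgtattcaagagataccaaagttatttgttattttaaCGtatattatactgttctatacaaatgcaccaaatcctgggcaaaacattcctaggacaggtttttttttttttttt
TENM3, a teneurin that guides synaptic partner choice, shows that the contrast is not always that wide. Its occupied start at chr4:182448766-182449015 has 35 CG and 77.2% G+C, and its unoccupied one at chr4:182143713-182143962 still has 20 CG and 56.8% G+C, both on the plus strand.
TENM3 start with a region: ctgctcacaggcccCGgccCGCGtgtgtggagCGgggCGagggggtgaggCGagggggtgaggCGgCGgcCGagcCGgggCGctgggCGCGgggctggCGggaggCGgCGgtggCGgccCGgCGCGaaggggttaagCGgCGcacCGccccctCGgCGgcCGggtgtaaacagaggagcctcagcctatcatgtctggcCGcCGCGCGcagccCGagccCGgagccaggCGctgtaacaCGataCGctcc
TENM3 start without a region: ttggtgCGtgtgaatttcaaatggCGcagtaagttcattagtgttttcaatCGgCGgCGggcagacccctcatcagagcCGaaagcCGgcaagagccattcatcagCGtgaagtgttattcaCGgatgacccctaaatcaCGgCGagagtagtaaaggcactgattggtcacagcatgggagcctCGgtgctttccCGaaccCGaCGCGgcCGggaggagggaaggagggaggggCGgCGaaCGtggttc
OSBPL1A, an oxysterol-binding family protein, is an exception in base composition. Its start with a member, at chr18:24272233-24272482 on the minus strand, has 9 CG and 41.2% G+C.
OSBPL1A start with a region: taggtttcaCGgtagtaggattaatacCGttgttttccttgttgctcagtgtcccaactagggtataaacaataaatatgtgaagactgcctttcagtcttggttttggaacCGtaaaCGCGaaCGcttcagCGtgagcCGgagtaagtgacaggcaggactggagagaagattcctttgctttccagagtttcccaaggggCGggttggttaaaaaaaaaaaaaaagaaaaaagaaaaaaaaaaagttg

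The members at those starts had these folds over background, as the authors deposited them. The IGSF11 region reached 6.41, 8.76, 9.38 and 15 in MYT1L replicates 1 to 4, a mean of 9.90 ± 3.66 (SD, n = 4), with its summit 18 bp from the start. The KLHL32 region had 8.24, 6.79, 8.08 and 11.8, and the FUT8 region 7.38, 7.20, 5.04 and 13.7. The TENM3 region had 6.41, 8.23, 8.86 and 10.7, and the OSBPL1A region 8.67, 6.33, 5.36 and 12.2. Replicate 4 was the highest library at all 5 of these regions, while the order of the other libraries changed from region to region. None of the regions overlapped a peak of either IgG library, which the definition of a member requires.

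Internal starts with a member were richer in G+C and CpG than the other internal starts. The start table listed 1191 internal starts of long genes. A member lay within 500 bp of 162 of them (13.6%), a less supported or IgG-overlapping region within 500 bp of 222 (18.6%), and no region at 807. The median G+C content of the 250 preceding bases was 71.2% at starts with a member, 63.6% at starts with another region and 44.8% at starts without one, against 58.0% over all 35116 starts of the table. The median observed-to-expected CpG ratio followed the same order at 0.848, 0.678 and 0.275, against 0.558 over all starts. Starts counted as CpG-rich here, with at least 55% G+C and a ratio of at least 0.65, made up 77.8% of those with a member, 49.1% of those with another region, 6.32% of those with none, and 39.6% of the table. Read the other way, 126 of 286 CpG-rich internal starts carried a member (44.1%), as did 36 of 905 that were not CpG-rich (3.98%). The family's core sequence, AAGTTT or its reverse complement AAACTT, was present in these 250 bases at 6.79% of starts with a member, 8.56% with another region, 16.7% without a region and 11.2% of all starts. The core consists mostly of A and T, and these shares ran in the reverse order of the G+C content of the same groups. The part of base composition in them was not tested. The 5 printed starts with a member hold neither form. Those counts describe only the letters in that window, because the sequence under the summits was not used here.

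The share of regions at an internal start rose with the number of supporting libraries. Among regions without an IgG peak inside long genes it was 2.54% with 1 library, 9.67% with 2, 19.1% with 3 and 28.2% with 4. Shorter genes showed the same order with higher values, 4.66%, 15.1%, 26.4% and 38.2%. Over all supported regions 31.2% of those inside shorter genes were at an internal start, while the windows around internal starts covered 0.543% of the length there. A summit at an internal start was therefore not particular to long genes. The regions of a list are not independent replicates, and no test was made over them.

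**Figure D1:**
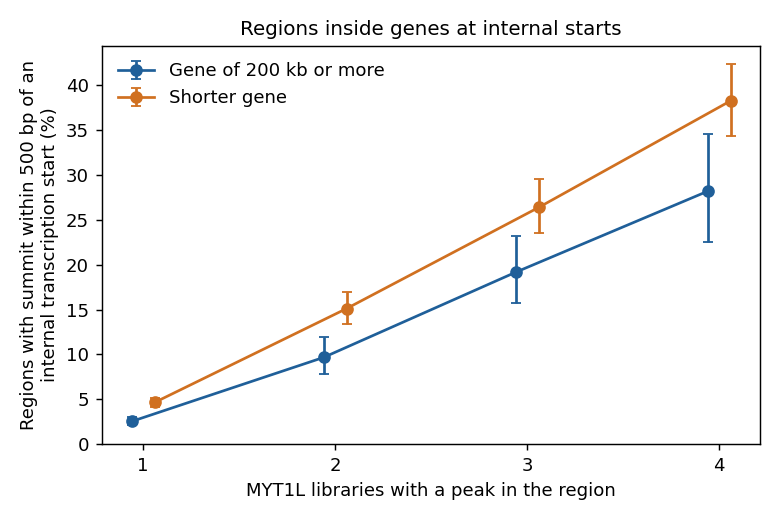
Share of regions whose summit lay within 500 bp of an internal protein-coding start (%), against the number of MYT1L libraries with a peak, for genes of 200 kb or more (blue) and shorter genes (orange). Bars are 95% Wilson intervals, which cover counting error only, and the share rises from 2.54% to 28.2% in long genes.

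The 141 regions at internal starts spread over 134 genes. In 137 of them the start belonged to the long host gene itself, and in 4 to another protein-coding gene. SESN1, a stress-response regulator of mTORC1 signalling, is an example: its start lay inside ARMC2, and the region had folds of 6.65, 7.74, 7.22 and 13.1. The median distance between summit and start was 150 bp, and 113 summits lay within 250 bp. The summit was upstream of the start in 53 regions and at or downstream of it in 88. A further 12 members (1.89%) had no internal protein-coding start but lay within 500 bp of the start of a long noncoding RNA. The remaining 483 (75.9%) were at no listed start of either kind. Only 1159 of the 1399 long genes have an entry in the start table. The 526 members in such genes were at an internal start in 26.8% of cases, and 107 of the 483 lie in genes without an entry, whose internal starts could not be assessed.

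Several hosts are genes of neuronal development. NRXN3 encodes a neurexin, a presynaptic adhesion protein with long and short forms, and its region at an internal start had folds of 6.04, 5.12, 4.63 and 7.24 in replicates 1 to 4. DAB1, the adaptor that relays reelin signals to migrating neurons, had regions at 2 internal starts, 5.36, 6.86, 5.36 and 8.44 at chr1:58249710-58250683, and 4.91, 5.97 and 7.31 in replicates 1, 3 and 4 at chr1:57423543-57424860. CTNNA2, the neuronal alpha-catenin, had 7.06, 4.88 and 11.4 in replicates 1, 3 and 4. Replicate 2 had no peak at the second DAB1 region or in CTNNA2. ROBO1, a receptor for the repellent Slit proteins, had 4.77, 6.96, 4.66 and 7.63 at its internal start. NFIB, a transcription factor of forebrain development, lacked a peak in replicate 1 and had 8.07, 7.80 and 11.9 in the others. RBPJ, the DNA-binding effector of Notch signalling, had regions at chr4:26319171-26320048 and chr4:26320698-26321552, each in 3 libraries, with mean folds of 5.72 ± 0.939 and 6.13 ± 0.746 (SD, n = 3). These genes were chosen by function after their values were seen.

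The fold of regions at internal starts differed from that of the rest mainly in 1 library. The median over members at internal starts was 5.80, 5.94, 5.85 and 7.93 in replicates 1 to 4, and over members at no start it was 5.50, 5.65, 5.29 and 5.74. Replicate 4 exceeded the mean of the other libraries in 125 of 141 members at internal starts (88.7%), with a median difference of 2.07. At no start it did so in 255 of the 457 with a replicate 4 peak (55.8%), with a median difference of 0.212. Over replicates 1 to 3 alone the medians were 5.86 and 5.54. Members at internal starts had a median width of 883 bp and 42.6% had a peak in all 4 libraries, against 705 bp and 31.3% at no start. The 12 members at long noncoding RNA starts were also all higher in replicate 4 than in the mean of the others. Supported regions at the ends of genes of any length had the same profile, with medians of 5.66, 5.85, 5.75 and 8.54 over 6723 regions, so a high replicate 4 was not particular to internal starts.

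**Figure D2:**
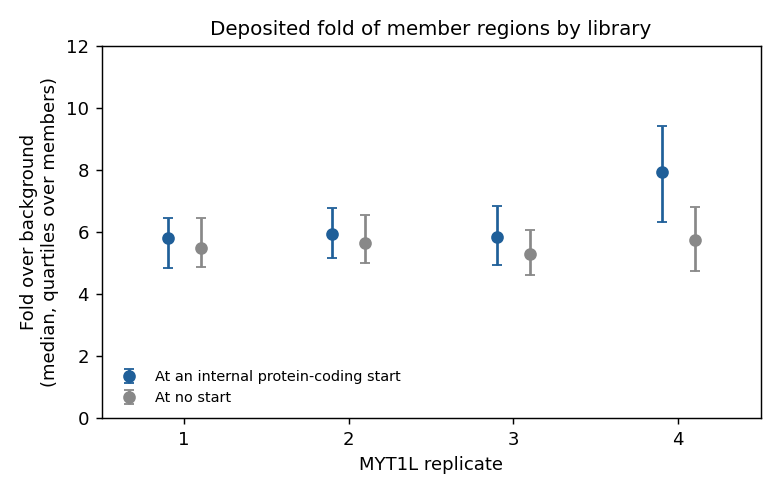
Deposited fold over background of the members by MYT1L replicate, as the median with lower and upper quartiles over members, at an internal protein-coding start (blue) and at no start (grey). Replicates 1 to 3 lie close together for both kinds, and replicate 4 has a median of 7.93 at internal starts.

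At the outer start, the annotated 5′ end of the whole gene, occupancy was less frequent in the genes with a member at an internal start. A reproducible region without an IgG peak lay at the outer start of 33 of these 134 genes (24.6%). It lay there in 143 of 244 other genes with a member (58.6%), counted where the strand is known. Long genes without a member had it in 161 of 334 cases (48.2%) where they have an internal start and in 260 of 447 (58.2%) where they have none. At the 3′ end it was found in 2 of 378 genes with a member (0.529%). These shares compare annotated gene ends and say nothing about which start the cells used, since no expression was measured.

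Along the gene, members lay more often toward the 5′ end. Of 526 members in genes of known strand, 83 (15.8%) were in the first 10% of the gene length and 37 (7.03%) in the last 10%. Members at internal starts had 20.6% in the first and 2.84% in the last such interval, and the other members 14.0% and 8.57%. Members close to one another were the exception: the 189 pairs of neighbours within a gene had a median gap of 77.0 kb, and 23 pairs (12.2%) lay within 10 kb.

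**Figure D3:**
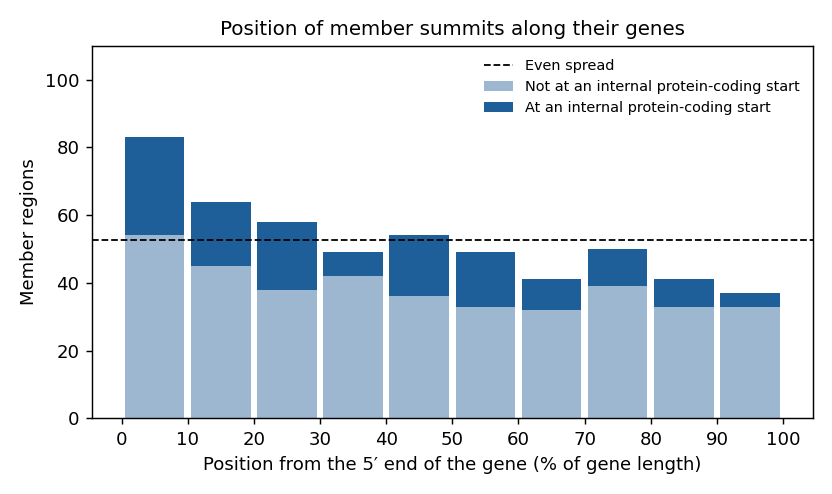
Number of members by the position of the summit along the gene (% of gene length from the 5′ end), for 526 members in genes of known strand, split into members at an internal protein-coding start (dark) and the others (light). The dashed line marks an even spread, and the first bar holds 83 members and the last 37.

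The highest mean folds belonged to regions at no listed internal start. The first named here are the 10 highest among members with a peak in every MYT1L library. Inside CACNA1C, the pore-forming subunit of the L-type calcium channel Cav1.2, the region chr12:2255805-2256088 had folds of 25.5, 24.3, 20.4 and 23.3 in replicates 1 to 4 (23.4 ± 2.20, SD, n = 4), the highest in all 4 libraries among the members. A region in COL23A1, a transmembrane collagen, followed with 20.7, 14.4, 15 and 19.3 (17.4 ± 3.12). TJP1, the tight-junction scaffold ZO-1, had 13.4, 12, 9.18 and 12.7. DLGAP2, a scaffold of the postsynaptic density, had 10.7, 12.5, 8.83 and 11.3 at its strongest region, and RPTOR, the mTORC1 subunit raptor, 12.4, 11.4, 10.5 and 8.85. All values of CACNA1C and COL23A1 were above those of TJP1, whereas the ranges of TJP1, DLGAP2 and RPTOR overlapped one another. Behind IGSF11 came ZNF407, a zinc-finger protein, with a mean of 9.64 ± 1.55, and STARD13, a protein with a lipid-binding START domain, with 9.52 ± 2.52. FGF14, which binds voltage-gated sodium channels, had 8.24, 7.50, 7.59 and 13.0, at the start of the antisense RNA gene FGF14-AS2. ANXA8, an annexin with a near-identical copy nearby, had 8.88 ± 0.940, and reads of the copies may have been split. Of these 10 regions 6 were at neither kind of start, and 2 more, in DLGAP2 and ANXA8, were at no listed start but in genes without an entry in the start table. Of the 10, 4 were within 5 Mb of a chromosome end, and 4 were narrower than 500 bp. A further 3 members reached a mean fold of at least 10 with 3 libraries. EHMT1, a histone H3 lysine methyltransferase gene, had 11.3, 14.0 and 14.3 in replicates 1, 2 and 4. TASP1, a protease gene, had 11.3, 19.4 and 6.86 in replicates 2, 3 and 4, and HHAT, whose enzyme palmitoylates hedgehog proteins, had 13.7, 12.1 and 8.17 in replicates 1, 3 and 4. The TASP1 and HHAT values spread more widely between libraries than those of EHMT1.

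Most members were weaker than these examples. Their median mean fold was 5.74, with a range of 2.58 to 23.4; 8 reached at least 10, and 123 were below 5. The median over members was 5.54, 5.68, 5.36 and 6.05 in replicates 1 to 4. Their median width was 745 bp, between 229 and 3274 bp. Supported regions at gene ends had a median fold of 6.63 and 866 bp, those inside shorter genes 5.80 and 760.5 bp, and intergenic ones 5.64 and 617 bp. A peak in all 4 libraries was found for 213 members (33.5%), against 51.2% at gene ends, 40.4% inside shorter genes and 34.9% between genes. The 423 members with 3 libraries lacked replicate 2 in 223 cases (52.7%), replicate 3 in 133 (31.4%), replicate 1 in 41 and replicate 4 in 26. Replicate 2 had the shortest list, with 12310 peaks, and replicate 3 the next, with 18966. Replicates 1 and 4 had 27926 and 30086. With replicate 2 left out, and peaks required in at least 2 of the remaining libraries, the count was 1262. It was 1116 without replicate 3.

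MYT1L itself is a long gene, and 1 of the 10 regions inside it was a member, beside 11.7% of the regions in all long genes. The region chr2:1861740-1861994 had folds of 8.43, 7.10, 10.2 and 9.60 (8.83 ± 1.36, SD, n = 4), at no listed start and 72.6 kb from the nearest gene end. The lowest and highest of these were replicates 2 and 3. ST18, the other long gene of the family, held 2 regions and no member.

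Members were spread thinly over many genes. Of the 1399 protein-coding genes of at least 200 kb, 447 (32.0%) held a member, and 952 held none. A gene held 1 member in 326 cases, 2 in 84, 3 in 28 and 4 in 5, and the remaining genes held 7, 8, 9 and 14. The share of genes with a member was 27.8% from 200 to 300 kb, 27.5% from 300 to 500 kb, 45.1% from 500 to 1000 kb and 52.2% in the 69 genes of at least 1000 kb. Per length, the shortest class had the most members and the longest the fewest, with 1.5, 1.02, 1.01 and 0.637 members per Mb of gene. The interiors of long genes, 583 Mb in all, held 1.09 members per Mb, against 2.16 supported regions per Mb inside shorter genes and 1.31 between genes. All MYT1L regions, whatever their support, had the same order, with 9.36, 16.3 and 10.8 per Mb.

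Over all long genes, 636 of 5452 regions (11.7%) were members. DLGAP2 held the most members, 14 of 63 regions, with mean folds from 4.60 to 10.9, and 4 of them had a peak in every MYT1L library. ADARB2, a brain-expressed relative of the RNA-editing deaminases, held 8 of 31, with folds from 4.15 to 6.71. PTPRN2, a receptor-type phosphatase of dense-core vesicles, held 7 of 88, a share below that of all long genes, with folds from 3.91 to 7.40. The 3 genes lie within 5 Mb of a chromosome end. Their counts depended on support: with a peak in all 4 libraries required they were 4, 3 and 2. With a MYT1L library left out, a peak in only 2 of the others was required. PTPRN2 then had 10 without replicate 1, 17 without replicate 2 and 14 without replicate 3 or without replicate 4. It had 21 when at least 2 of all 4 libraries were required. AUTS2, a neurodevelopmental regulator associated with Polycomb proteins, held 4 members, of which 3 were in all 4 libraries. Its strongest had folds of 6.39, 5.27, 6.30 and 8.46. FUT8 held 3 members beyond the one at its internal start, and PCBP3, AFG2A and SMYD3 held 4 each. ABR, PLEKHA7 and MAP4 held 3 each. Under the same looser rule, ABR had 3, 4, 6 and 5 without replicates 1 to 4, and 6 with at least 2 of all 4 libraries.

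**Figure D4:**
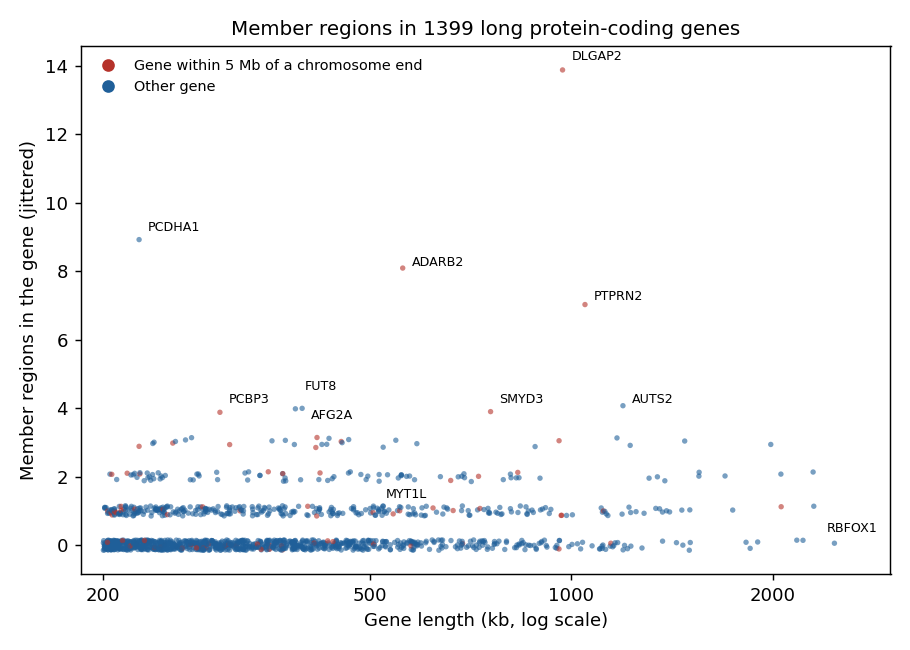
Members per gene against gene length (kb, log scale) for 1399 long protein-coding genes, with points shifted slightly in height for legibility. Genes within 5 Mb of a chromosome end are red. DLGAP2 stands highest with 14 members, and RBFOX1, the longest gene without one, lies at the lower right.

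Within PCDHA1 the 9 members followed a repeated layout. The gene held 15 MYT1L regions, 3 of which overlapped an IgG peak, and without the IgG filter it would have 10 members. PCDHA1 spans the protocadherin alpha cluster, whose genes each have a variable first exon of their own and share their last exons, so 1 long annotated body covers many genes. Because the annotated bodies of the cluster overlap, each member was assigned to the gene with the nearest start before its summit. By that rule the members went to 9 different genes of the 15 in the cluster. In 8 of them, PCDHA2, PCDHA3, PCDHA4, PCDHA6, PCDHA7, PCDHA11, PCDHA12 and PCDHA13, the summit lay 1778 to 2060 bp after the start of the gene. The region in PCDHA10 lay 7270 bp after its start. Mean folds ran from 4.98 in PCDHA4 to 6.76 in PCDHA2, and 5 of the 9 had a peak in all 4 libraries. These genes are close copies of one another, so the assignment of reads among them is uncertain. With the distance from gene ends raised to more than 5000 bp, 1 of the 9 remained a member.

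Over the groups of long genes by function, the share that held a member ran from 7.69% to 51.0%, beside 32.0% over all long genes. Of 49 long genes of synaptic and neuronal adhesion 25 held one (51.0%), against 32.0% of all long genes, but these genes are also the longer ones, with a median of 887 kb against 319 kb. Per length they had 0.737 members per Mb, against 1.08 over all long genes. Long genes of any function had 1.01 per Mb from 500 to 1000 kb and 0.637 at 1000 kb or more. Of those genes 45.1% and 52.2% held a member, and the values of the adhesion group lay between those of these length classes. PTPRN2 alone supplied 7 of the group's 35 members, and the part of gene length was not tested. Beside PTPRN2, NLGN1, a postsynaptic neuroligin, held 2, with folds of 4.58, 5.49, 3.90 and 4.22 at the one present in all libraries. In this group 6 of 35 members were at internal starts, in ADGRL2, CTNNA2, NLGN4X, NRXN3, NTM and TENM3, beside 22.2% of all members. Cadherins and protocadherins outside the clusters had 1 gene of 13 with a member (7.69%) and 0.0996 members per Mb. It was PCDH9, with 6.41, 5.63 and 5.28 in replicates 1, 2 and 4.

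Channel and receptor genes held 0.476 members per Mb (calcium channels), 0.658 (potassium channels) and 0.744 (glutamate and GABA receptors), against 1.08 over all long genes. The share of genes with a member was 32.0% over all long genes. Among voltage-gated calcium channel subunits only CACNA1C of 9 genes held any, with 2. Potassium channels had 5 of 16 genes with a member (31.3%), 1 each, and the KCNN2 region, in a small-conductance calcium-activated channel gene, was at an internal start, with 5.52, 4.79, 4.55 and 6.51. Glutamate and GABA receptors had 6 of 21 (28.6%), with 2 members in GABRB1, a subunit of the GABA-A receptor. None of their 8 members was at an internal start, beside 22.2% of all members.

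Among regulators, 16 of 50 long transcription factor and chromatin genes held a member (32.0%), the same share as over all long genes (32.0%). These genes were led by AUTS2 and by ARID1B, a subunit of the BAF remodelling complex. Internal starts accounted for 5 of their 23 members, in CAMTA1, FOXP1, NFIB, TSHZ3 and ZFHX3, beside 22.2% of all members. The FOXP1 region had 6.13, 7.31 and 5.78 in replicates 1, 3 and 4. RNA-binding and splicing regulators had 3 of 11 genes with a member (27.3%): RBMS1 with 2, and MBNL1 and CELF2 with 1 each, both at an internal start. Axon guidance genes had 5 of 23 (21.7%), led by ROBO1 with 3 members, and NTN1, the guidance cue netrin-1, had 1.

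Signalling and cytoskeletal genes had the most members per length of the groups with more than 5 long genes. For comparison, 32.0% of all long genes held a member. Kinases, phosphodiesterases and scaffolds had 21 of 52 genes with a member (40.4%) and 1.36 per Mb, but 14 of their 47 members were those of DLGAP2, and DOCK1, a Rac exchange factor, held 3. Migration and cytoskeleton genes had 13 of 29 (44.8%) and 1.22 per Mb. PALLD, an actin-bundling protein, held 3, and DST, a cytoskeletal linker, held 2. Extracellular matrix and muscle genes, a group with no specific tie to neurons, had 8 of 26 (30.8%), among them EYS with 3 and COL4A2 with 2. None of these groups was tested against the others.

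Some of the longest genes in the table held MYT1L regions but no member, while 11.7% of the regions in all long genes were members. RBFOX1, a neuronal splicing regulator of 2474 kb, contained 17 MYT1L regions, none of them a member. DMD, the dystrophin gene, contained 3, DLG2, a postsynaptic scaffold gene, 12, and LRP1B, a lipoprotein receptor relative, 1. CTNNA3 and PCDH15 had 13 and 14, and AGBL4 had 18. For each of them regions were present in some libraries, and the support or IgG filter was not met.

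Members near chromosome ends lay more often at no listed start than at an internal one. Of the 636, 100 (15.7%) lay within 5 Mb of a chromosome end, while 5.93% of the length inside long genes does. DLGAP2, ADARB2 and PTPRN2 held 29 of those 100, and without these genes the share was 71 of 607 (11.7%). It was 5.67% among members at internal starts and 19.0% among those at no listed start. Part of that contrast came from genes missing from the start table, DLGAP2 and PTPRN2 among them: with these set aside, 59 of 376 members at no start (15.7%) were near a chromosome end, and in the missing genes 33 of 107 (30.8%). Regions of a single library inside long genes had 17.5%. Supported regions inside shorter genes had 18.8%, where 10.1% of the length lies near chromosome ends.

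Genes not classed as protein-coding overlapped 88 members (13.8%), of which 69 met a long noncoding RNA gene. The 88 include the 9 members in PCDHA1, which overlap an entry for the protocadherin alpha cluster as a whole. That entry is not a noncoding gene. Among single-library regions inside long genes the share was 9.50%. Those regions were narrower, with a median width of 253 bp against 745 bp for members, and the part of width was not tested. Small RNA genes overlapped by members included MIR4785 in RBMS1, MIR6132 in ST7 and SNORD147 in PLEKHA7. The RefSeq gene table does not strand these overlaps with the peaks, so sense and antisense could not be told apart.

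The whole lists were compared with IgG by exact permutation over the 6 libraries, two-sided, with 15 possible splits and a smallest possible p of 0.133. Summits inside long genes made up 9.62%, 8.51%, 9.16% and 8.92% of peaks in MYT1L replicates 1 to 4, and 5.12% and 4.91% in IgG replicates 1 and 2. The groups did not overlap (9.05% ± 0.466, SD, n = 4, against 5.02% ± 0.151, SD, n = 2; exact permutation p = 0.133, adjusted 0.4 over 3 tests). The IgG lists were far shorter, with 976 and 998 peaks. With each of the 6 lists reduced to its 976 strongest peaks, the difference turned from 4.04 to -2.23 percentage points. A −log10 q threshold of 5 left it at 4.11. The direction thus did not hold among the strongest peaks of equal-length lists. As a share of peaks inside any gene, long genes held 33.1%, 31.9%, 34.8% and 31.2% in MYT1L and 36.8% and 32.7% in IgG, and the groups overlapped (exact permutation p = 0.4, adjusted 0.6). The groups were apart, with IgG higher, for genes of at least 100 kb (a difference of -5.09 percentage points) and with equal numbers of top peaks (-8.30), each at the smallest exact permutation p, 0.133. Of peaks inside long genes, 8.49%, 9.93%, 11.1% and 12.2% were at an internal start in MYT1L. In IgG it was 2 of 50 (4.00%, Wilson interval 1.10% to 13.5%) and 8 of 49 (16.3%, 8.51% to 29.0%), on both sides of the MYT1L values (exact permutation p = 0.933, adjusted 0.933). Among all peaks, the share at internal starts was thus not distinguishable from IgG with these libraries, and the higher shares above apply to the regions with support in at least 3 libraries.

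**Figure D5:**
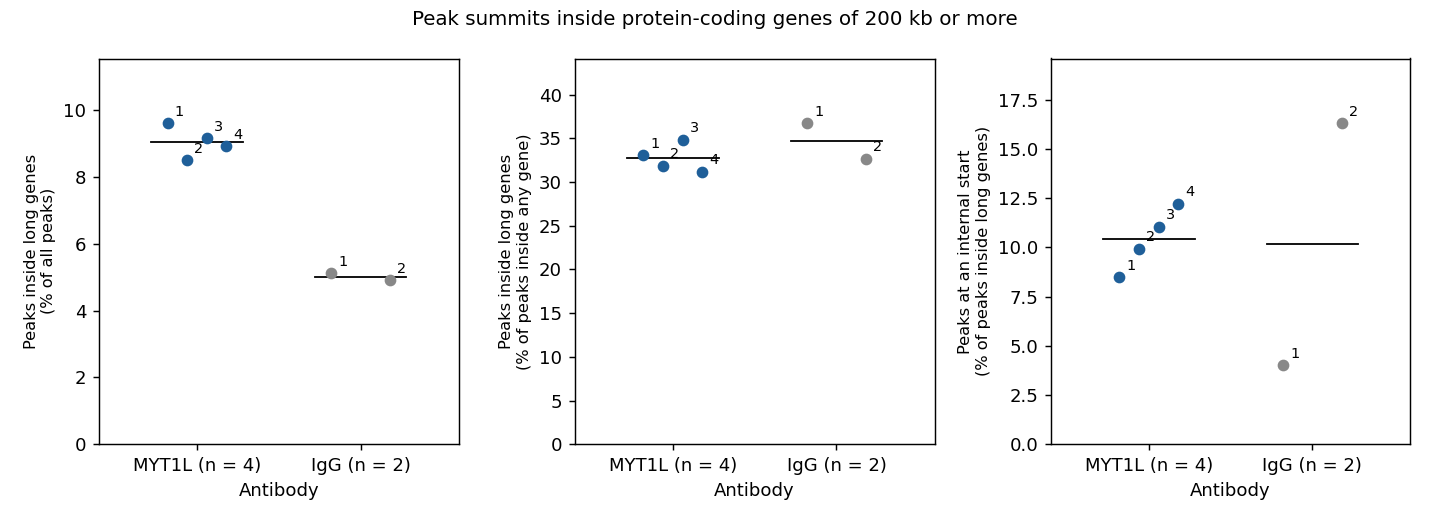
Share of peak summits inside genes of 200 kb or more, per library, as a percentage of all peaks (left), of peaks inside any protein-coding gene (middle), and share of those inside long genes that lay at an internal start (right). Points are libraries with their replicate number, and lines are group means. The groups are apart in the left panel, and the IgG libraries lie on both sides of MYT1L in the right one.

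The IgG filter removed few regions inside long genes. Without it the count would be 682, with 10 regions in 3 libraries and 36 in 4 added. Those 36 were 14.5% of the regions inside long genes with a peak in all 4 libraries. The share that overlapped an IgG peak was 0.253%, 0.850% and 2.31% with 1, 2 and 3 libraries. The IgG lists, with 976 and 998 peaks, could remove few regions at most, so the small number removed does not measure how specific the members are.

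The limits of the definition fell within a continuous series. Just inside the length limit were members in PAX5 (201000 bp, mean fold 5.20), TSHZ3 (201002 bp, 4.98) and CCDC30 (201084 bp, 7.21), and just outside it supported regions in RHBDD1 (199052 bp, 7.61), ATP11A (197131 bp, 5.81) and RBM20 (196224 bp, 4.87). The members closest to a gene end lay 1048 bp from it in NTNG1, 1050 bp in AIG1 and 1077 bp in ROBO1.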

How the data were processed

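CUT&RUN libraries were made from H1 cells at day 30 with a commercial kit, 4 for MYT1L and 2 for IgG, per the labels' protocols. The deposited data are 1 peak list per library. MACS2 and the build hg38 are named in the submitters' processing notes; the aligner, thresholds and control library are not given in the sources used here. Each deposited peak has a score, a fold over background (a ratio), a −log10 p and a −log10 q by the authors, used here for description and filtering inside each list. The lists give no read totals, so depth is unknown.

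Regions were built with Python 3.11.15, numpy 2.4.6 and pandas 2.3.3 and checked against bedtools 2.31.1, with 0 differing of 49028. The procedure was tested on simulated data, with 400 of 400 regions placed as set. A region's fold is the mean over libraries of the highest fold of its peaks, and its summit is that of its strongest peak. Peaks of a library were placed by summit. Gene bodies and noncoding genes came from the RefSeq table of GRCh38.p14, which has no strand, and starts, strand and sequences from the RefSeq promoter table, in which chromosome 8 has no entry. Internal starts lie more than 1000 bp from every protein-coding gene end. The 6 libraries were grouped and numbered by sample title. Group differences used exact permutation, two-sided, with Benjamini-Hochberg adjustment over 3 tests. Wilson intervals are at 95% and cover counting error only.

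Named genes are the 12 long genes with the most members, the 10 members with the highest mean fold among those in all 4 libraries, the 8 longest genes with no member, the MYT1 family, and the first 2 genes of each of the other 11 gene groups; others are examples chosen for their function. Some genes that meet this rule are not reported here. The members and gene groups were chosen with earlier results of these data known, and the internal starts were examined after the data were seen. Alternatives covered the q threshold, the number of libraries, gene length, the distance from gene ends, equal list sizes and the leaving out of each library. A motif search under the summits was not run.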

Additional observations from a re-analysis of the deposited data

Results flagged for a closer look

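Single libraries stood far from the others in 2 of 18 sets of values checked, where chance alone marks about 5% of sets. The median fold over members at internal starts was 7.93 in MYT1L replicate 4, above the 5.80 to 5.94 of the other libraries. Supported regions at gene ends showed the same pattern, with a median of 8.54 in replicate 4 and 5.66 to 5.85 in the others. The fold of the region in FGF14, at the start of the antisense gene FGF14-AS2, was 13.0 in MYT1L replicate 4, against 7.50 to 8.24 in the others. Replicate 4 had the longest peak list, with 30086 peaks, and the part of list length in these values was not tested.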

How the results depend on the processing

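The count of 636 members moved with every threshold on support or length. Raising the −log10 q threshold to 5 gave 255, and it was 1453 with at least 2 libraries, 213 with all 4, 1123 for genes of at least 100 kb and 307 for at least 400 kb. With equal lists, here the 12310 top peaks of each MYT1L library, it was 239. In the same order, the share of long genes with a member, 32.0%, became 14.7%, 54.8%, 12.5%, 24.9%, 41.0% and 14.2%. The median fold of 5.74 became 6.97 with the q threshold, 5.30 with 2 libraries, 6.49 with all 4 and 6.91 with equal lists, and the share in all 4 libraries fell from 33.5% to 14.7% with 2 libraries. Requiring all 4 leaves that share without meaning, so it has no value there. The share at internal starts, 22.2%, was 30.2%, 15.1%, 28.2%, 17.6% and 33.9% with the q threshold, 2 libraries, all 4, 400 kb and equal lists; it was 17.8% within 250 bp of a start and 26.8% for hosts in the start table.

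With each MYT1L library left out and 2 of the other 3 required, or each IgG library left out, the count ran from 654 to 1262, the share of genes from 32.5% to 51.0%, the median fold from 5.32 to 5.76, the share in all libraries from 27.0% to 34.8% and the share at internal starts from 16.8% to 22.4%. The highest count came without replicate 2.

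For the comparisons with IgG, equal lists held the 976 top peaks of each of the 6 libraries. The difference in the share of all peaks, 4.04 percentage points, reversed to -2.23 with equal lists. It was 6.54 for 100 kb and 1.81 for 400 kb, and was 3.85 to 4.22 with a library left out. The difference as a share of peaks inside genes, -1.98, reversed to 1.85 with the q threshold and to 1.81 beyond 5000 bp from gene ends, was -8.30 with equal lists and -5.09 for 100 kb, and ran from -4.03 to 0.0708 with a library left out. The difference at internal starts, 0.260, was -2.37 for 400 kb, -0.0736 beyond 5000 bp and -0.0974 by whole peak, but 7.05 with the q threshold, 2.81 for 100 kb and 2.07 with equal lists, and ran from -5.90 to 6.42 with a library left out. It was below 0 without MYT1L replicate 4 (-0.339) and without IgG replicate 1 (-5.90). With the replicate number as a block over the replicates shared by both groups, the differences were 4.05, -2.25 and -0.954; the groups share only a number, so no pairing was assumed. All 146 alternative folds of named regions stayed within 1 SD, but this result was fixed in advance. Most settings leave the peaks of a region as they are, and regions lost under a setting were not counted. Leaving out 1 of 4 values cannot move their mean by 1 SD. These folds therefore say nothing about stability. Counts per named gene stayed within 1.5 times in 138 alternatives and moved further in 42. Peak lists carry no read totals, so what depth limits cannot be given.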
